A study of Mus musculus with 24 samples.

Results

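Hearts carrying the Arg389 form of the beta1-adrenergic receptor were set against hearts carrying type 5 adenylyl cyclase, over every probe set of the array except the Affymetrix controls. The groups were taken from the array titles: 6 ARG arrays and 6 AC5 arrays, 12 of the 24 arrays in the series. The ARG and AC5 mice carried a human cDNA (beta1-Arg389 or AC5) that the promoter of alpha-myosin heavy chain expressed in cardiac myocytes. The other 12 arrays came from non-transgenic mice (NTG, 6 hearts) and from mice with the receptor's Gly389 form under that promoter (GLY, 6 hearts). All mice were 90 days old and the hearts of a group are described as biological replicates. The sources used here do not give the number of founder lines behind each transgene. The comparison asks which transcripts differ between hearts in which a receptor was overexpressed and hearts in which an enzyme that the receptor works through was overexpressed.

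The beta1-adrenergic receptor is the main receptor for noradrenaline and adrenaline on heart muscle cells. It couples to the G protein Gs, which activates adenylyl cyclase, and the cyclic AMP made by the cyclase activates protein kinase A. Protein kinase A phosphorylates calcium channels, phospholamban and sarcomere proteins, so that the heart beats faster and harder, and receptor kinases, arrestins and phosphodiesterases end the signal. Type 5 and type 6 adenylyl cyclases are the main forms in cardiac myocytes. Sustained overexpression of the receptor in mouse heart is known to lead to fibrosis and failure.

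Each value was a linear ratio to the level in non-transgenic hearts, with NTG hearts near 1 for most probe sets. Ratios carry no signal level, and the tissue could not be checked by how abundant heart transcripts were; of 12 cardiomyocyte markers limma called none between ARG and AC5 (1 higher and 1 lower at an unadjusted p under 0.05). In the ARG and AC5 arrays ratios ran from 0.094 to 34.8. Array medians of log2 ratios lay between -0.048 and 0.029 in both groups together, and the mean SD between replicates was 0.192 in ARG and 0.155 in AC5 on the log2 scale. The ARG arrays had wider distributions (SD of log2 ratios 0.267 to 0.354) than the AC5 arrays (0.179 to 0.244). ARG replicate 1 had the lowest limma weight of these arrays (0.478). The labels name no batch, but replicates 1 to 3 and replicates 4 to 6 resembled each other within a group, as an earlier look at these data had shown, so changes within each set of 3 against 3 are given beside the leading results. All p-values measure the spread between these hearts.

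Of 45037 probe sets, 2220 differed between ARG and AC5 (4.93%, limma, Benjamini-Hochberg adjusted p under 0.05). In ARG 1134 were higher (2.52%) and 1086 were lower (2.41%). Higher values were more frequent among the larger changes: 126 of the higher and 48 of the lower calls were at least 2-fold. The 6 ARG and 6 AC5 values did not overlap in 1382 probe sets (3.07%). Counted as genes at a probe set chosen without its values, 574 of 18194 were higher (3.15%) and 580 lower (3.19%), with a median change of -0.004 on the log2 scale, which is the background for the gene lists described further on. Within replicates 1 to 3 alone 244 probe sets were called, and within replicates 4 to 6 alone 1370 were. Quantile normalization, which gives every array the same distribution, left 889 calls, of which 864 were called in the same direction without it, and leaving out the 3 arrays of the series with a weight under 0.5 (ARG replicate 1, GLY replicates 1 and 3) gave 3540.

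**Figure D1:**
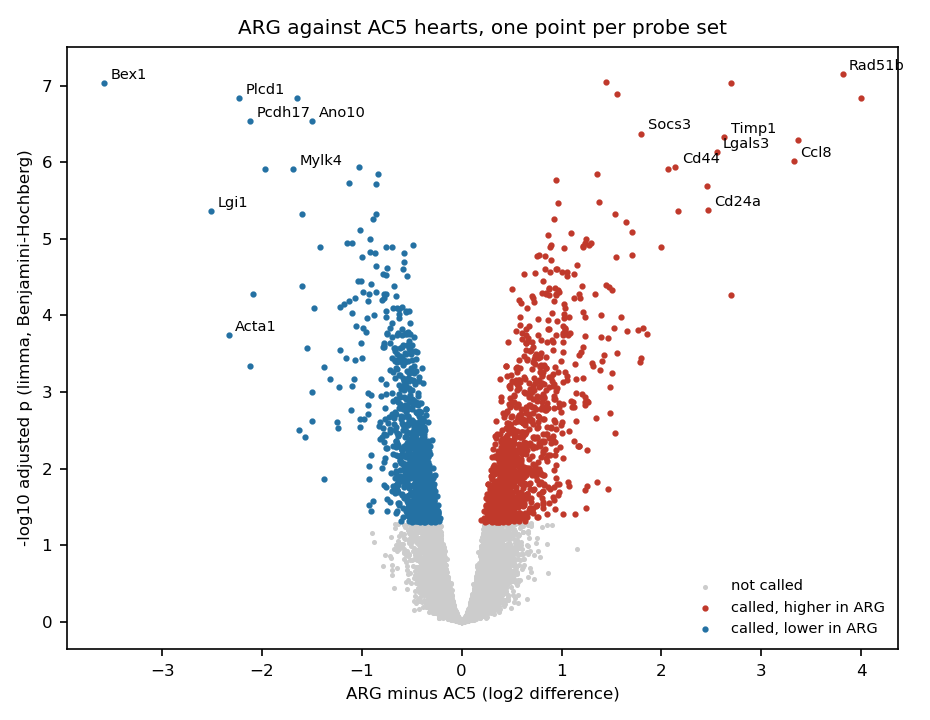
Difference between ARG and AC5 hearts (x axis, log2) against -log10 of the limma adjusted p (y axis) for 45037 probe sets, with the 1134 higher calls in red, the 1086 lower calls in blue and probe sets that were not called in grey. Rad51b and Ccl8 lie farthest to the right among the labelled genes and Bex1 farthest to the left.

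The same hearts can be read against the non-transgenic level. Of 45037 probe sets 4355 were called in ARG against NTG (9.67%) and 64 in AC5 against NTG (0.142%). These comparisons share arrays with that of ARG against AC5, so the values are given side by side and not as separate evidence. Unless NTG is named, a rise or fall is relative to AC5, and ARG need not have left the NTG level. Between ARG and GLY, which tests for a gene whether the 2 receptor forms stand apart equally from AC5, 678 were called (1.51%).

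The transgene itself was read first. Adcy5, the mouse gene for type 5 adenylyl cyclase, had ratios of 1.24 to 1.46 in the 6 AC5 hearts (median 1.32), 0.820 to 1.38 in the ARG hearts (median 1.01) and 0.934 to 1.09 in the NTG hearts. Every AC5 heart lay above every NTG heart, though AC5 minus NTG (0.41) was not called (limma adjusted p = 0.0813). Of the 6 ARG hearts 5 lay below all AC5 hearts. The difference between ARG and AC5 was -0.36 ± 0.10 on the log2 scale (ARG minus AC5, SE, adjusted p = 0.0199). It was not called without AC5 replicate 5 or without ARG replicate 2 (adjusted p 0.0506 to 0.0636). Only 1 of 4 Adcy5 probe sets was called. The transgene is a human cDNA, and how far a mouse probe set reads it was not tested. Probe sets of the receptor are not analysed here. Myh6, the gene whose promoter drives the transgenes, had ratios of 0.583 to 0.986 in ARG and 0.640 to 1.06 in AC5, with a difference of -0.22 ± 0.20 (adjusted p = 0.720) and a 95% interval from -0.64 to 0.19.

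The largest rises in ARG over AC5 were in genes of inflammation, matrix and cell surface, led by Rad51b, a gene of DNA repair. Rad51b had ratios of 17.3 to 22.9 in the ARG hearts (median 19.7) and 1.21 to 1.70 in the AC5 hearts (median 1.38). The 6 ARG hearts lay close together and far above all AC5 hearts. The difference was 3.82 ± 0.31 (log2, SE, n = 6 per group, adjusted p = 7.12e-08), a 14.1-fold rise, at 3.76 among replicates 1 to 3 and 3.87 among replicates 4 to 6. Both Rad51b probe sets rose. Against GLY the ARG difference was 0.96 (adjusted p = 0.130), which was not called.

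Ccl8, a chemokine that attracts monocytes, ran from 4.69 to 22.1 in ARG (median 13.2) and from 0.905 to 1.27 in AC5 (median 1.13). It rose by 3.33 ± 0.34 (adjusted p = 9.77e-07), and by 1.89 in ARG over GLY (adjusted p = 0.0035). The ARG hearts were spread widely, yet the lowest was above the highest AC5 heart. Timp1, an inhibitor of matrix metalloproteinases, lay between 4.23 and 14.5 in ARG (median 5.96) and between 0.950 and 1.26 in AC5, a rise of 2.63 ± 0.26 (adjusted p = 4.71e-07). Lgals3, galectin-3, a lectin made by activated macrophages, lay between 4.20 and 9.85 in ARG (median 7.74) and between 0.909 and 1.39 in AC5, a rise of 2.55 ± 0.26. Cd44, the receptor for hyaluronan, lay between 3.03 and 9.68 in ARG (median 4.88) and between 0.891 and 1.38 in AC5, a rise of 2.14 ± 0.22. For Ccl8, Timp1, Lgals3 and Cd44 the AC5 hearts stayed near the non-transgenic level, and AC5 minus NTG (0.13, 0.22, 0.19 and 0.21) was not called. All 4 changes were larger within replicates 4 to 6 (3.90, 3.21, 3.05 and 2.70) than within replicates 1 to 3 (2.75, 2.06, 2.05 and 1.58).

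The other leading rises came from several functions. Cd24a, a small anchored surface glycoprotein, rose by 2.46 ± 0.28, and Serpina3n, a secreted protease inhibitor of the acute phase, by 2.00 ± 0.25. Uchl1, a ubiquitin hydrolase best known from neurons, rose by 1.85 ± 0.29, and Aqp4, a water channel, by 1.81 ± 0.28. Socs3, a feedback inhibitor of cytokine signalling, had narrow ranges of 3.04 to 4.52 in ARG and 0.878 to 1.22 in AC5 and rose by 1.80 ± 0.18 (adjusted p = 4.22e-07). Of these, Aqp4 was not called between ARG and GLY (0.53, adjusted p = 0.41), while Cd24a, Serpina3n, Uchl1 and Socs3 were higher in ARG than in GLY by 1.68, 1.26, 1.23 and 1.15. After quantile normalization the leading differences were smaller but kept their calls, at 2.45 for Rad51b, 1.70 for Timp1, 1.54 for Lgals3, 1.46 for Cd24a, 1.26 for Cd44, 1.16 for Serpina3n, 0.95 for Uchl1 and 1.09 for Socs3.

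**Figure D2:**
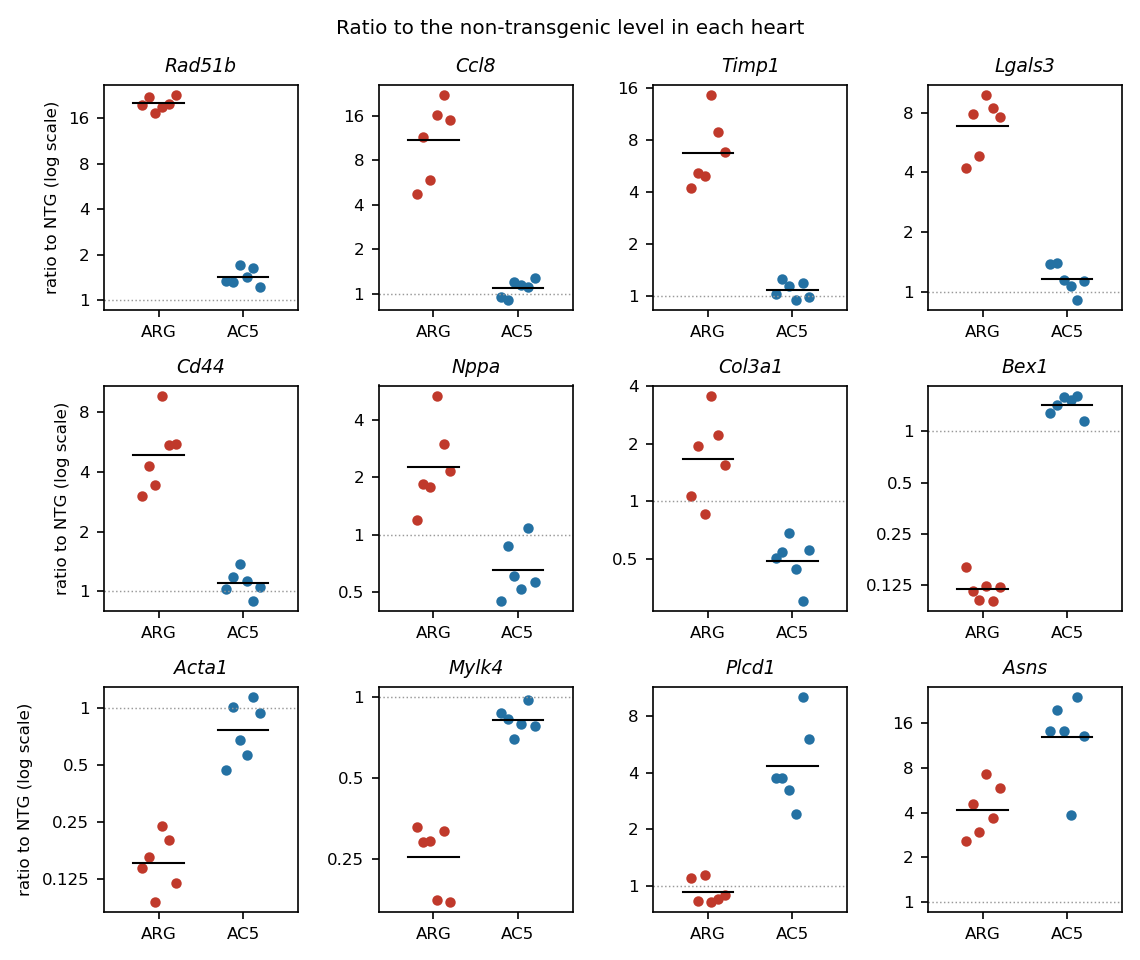
Ratio to the non-transgenic level (y axis, log scale) in each of the 6 ARG and 6 AC5 hearts for 12 genes, with the geometric mean as a black line and the NTG level of 1 as a dotted line. Rad51b, Ccl8, Timp1, Lgals3 and Cd44 are high in ARG and not in AC5. GLY hearts are not drawn, and every GLY heart also had a ratio above 1 for these genes. Bex1, Acta1 and Mylk4 are low in ARG, Plcd1 is high in AC5 and not in ARG, and Asns is above 1 in every heart of both groups.

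Among called genes whose groups did not overlap, the largest falls were in Bex1, a small adaptor protein first described in brain, and in Lgi1, a secreted leucine-rich repeat protein; Acta1, Mylk4 and Tmod4, genes of muscle filaments, were among the 12 largest. Bex1 had ratios of 0.101 to 0.159 in ARG (median 0.119) and 1.15 to 1.62 in AC5 (median 1.48). It fell by 3.58 ± 0.31 (adjusted p = 9.25e-08), with values of -3.54 and -3.62 in the 2 sets of replicates. Lgi1 ran from 0.0986 to 0.238 in ARG and from 0.659 to 0.981 in AC5 and fell by 2.51 ± 0.29. Neither gene was called between ARG and GLY (-1.03 and -0.71, adjusted p 0.10 and 0.27).

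Mylk4, a kinase of the myosin light chain kinase family, fell by 1.69 ± 0.18, from 0.695 to 0.973 in AC5 down to 0.173 to 0.330 in ARG. Ano10, a membrane protein of the anoctamin family, fell by 1.5 ± 0.14, and its ARG hearts lay within 0.307 to 0.413. Both were also lower in ARG than in GLY, by -0.93 (adjusted p = 0.0059) and -0.78 (adjusted p = 0.0039). Thrsp, a nuclear protein tied to fat synthesis, fell by 1.60 ± 0.22. Timp4, the metalloproteinase inhibitor typical of heart, fell by 1.55 ± 0.25, opposite to Timp1. Its ratios were 0.405 to 0.676 in ARG and 0.841 to 3.11 in AC5, so AC5 hearts were spread on both sides of the NTG level. Meig1, known from sperm formation, fell by 1.42 ± 0.18, and Cyfip2, a part of the WAVE actin regulatory complex, by 1.22 ± 0.18. Under quantile normalization Lgi1, Mylk4 and Thrsp kept their calls at -1.63, -1.08 and -1.01.

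A few genes stood apart because the AC5 hearts, not the ARG hearts, had left the non-transgenic level. Plcd1, the phospholipase C delta 1 enzyme, had ratios of 2.42 to 10.2 in AC5 (median 3.77) and 0.817 to 1.14 in ARG (median 0.868). ARG was lower by 2.23 ± 0.20 (adjusted p = 1.44e-07), beside 2.06 for AC5 minus NTG and -0.17 for ARG minus NTG, and 1 of its 2 probe sets was called. Pcdh17, a protocadherin of cell adhesion, had ratios of 2.55 to 5.44 in AC5 and 0.703 to 1.14 in ARG. The ARG difference was -2.12 ± 0.20, beside 1.98 for AC5 minus NTG and -0.14 for ARG minus NTG, and both of its probe sets fell.

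Asns, Mthfd2 and Phgdh, enzymes that make asparagine, one-carbon units and serine, were higher than NTG in both lines and higher in AC5 than in ARG. Asns, asparagine synthetase, had ratios of 3.87 to 24 in AC5 (median 14.2) and 2.58 to 7.26 in ARG (median 4.12). The groups overlapped through AC5 replicate 4, the lowest AC5 heart. ARG was lower than AC5 by 1.63 ± 0.34 (adjusted p = 0.0031), with AC5 minus NTG at 3.69 and ARG minus NTG at 2.06. Mthfd2, the mitochondrial folate enzyme, ran from 3.32 to 20.0 in AC5 and from 1.99 to 6.12 in ARG, a difference of -1.38 ± 0.34 (adjusted p = 0.0135). Phgdh, the first enzyme of serine synthesis, ran from 1.91 to 7.33 in AC5 and from 1.41 to 2.44 in ARG, a difference of -1.48 ± 0.22 (adjusted p = 8.08e-05). The changes were larger in replicates 1 to 3 (-2.27, -1.98 and -1.83) than in replicates 4 to 6 (-0.99, -0.78 and -1.14). Asns, Mthfd2 and Phgdh are each given here at the probe set most changed in AC5 against NTG. At the probe set chosen without values Asns differed by -1.245 ± 0.25, and 3 of 4 Phgdh probe sets were called.

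Asns, Mthfd2 and Phgdh are known targets of ATF4, the transcription factor of the amino acid and endoplasmic reticulum stress responses. On a list of 26 serine, asparagine and ATF4 target genes, at the probe set chosen without values, Nupr1 rose in ARG over AC5 and Asns, Ddit4 and Mthfd2 fell, with a median of -0.06. Against NTG the list had 8 higher and 2 lower in ARG (median 0.15) and 4 higher in AC5 (median 0.18). Nupr1, a stress-induced chromatin protein, ran from 1.43 to 2.23 in ARG and from 0.923 to 1.41 in AC5, a rise of 0.70 ± 0.14 (adjusted p = 0.00235) that quantile normalization ended (0.42, adjusted p = 0.151). Psat1, the next enzyme of serine synthesis, differed by -0.42 ± 0.21 and was not called (95% interval -0.85 to 0.01). Slc7a5, a subunit of the large neutral amino acid transporter, was higher than NTG in both lines (0.99 in ARG and 1.33 in AC5) and differed between them by -0.34 ± 0.23, with a 95% interval from -0.82 to 0.14. Of 24 amino acid transporter genes limma called none between ARG and AC5 (5 higher and 1 lower at an unadjusted p under 0.05).

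The promoters of Asns and Nupr1 are shown because these ATF4 targets differed from AC5 in opposite directions. Each line gives the 250 bases before the RefSeq start of the gene in mouse build GRCm38.p6, 5′ to 3′ on the gene's strand, at chr6:7693210-7693459 (minus strand) for Asns and chr7:126625471-126625720 (minus strand) for Nupr1. The capitals mark a match on either strand to the C/EBP-ATF response element, searched as TGATGNAA after the values had been seen.
Asns: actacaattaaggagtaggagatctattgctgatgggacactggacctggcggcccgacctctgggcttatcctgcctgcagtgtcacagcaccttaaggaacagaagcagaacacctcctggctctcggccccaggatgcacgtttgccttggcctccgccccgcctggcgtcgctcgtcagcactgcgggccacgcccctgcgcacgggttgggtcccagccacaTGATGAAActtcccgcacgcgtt
Nupr1: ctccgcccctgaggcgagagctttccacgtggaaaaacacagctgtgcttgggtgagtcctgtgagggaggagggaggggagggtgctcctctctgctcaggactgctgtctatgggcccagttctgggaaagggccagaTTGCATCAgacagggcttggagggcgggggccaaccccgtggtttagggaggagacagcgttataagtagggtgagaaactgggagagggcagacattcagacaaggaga
The match begins at -23 from the start in Asns and at -110 in Nupr1. The element was found in 7 of 24 list genes with a window of 250 bases before to 50 after the start, and in 4.51% of 27025 genes with such a window. A match of letters is a description and shows no binding.

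**Figure D3:**
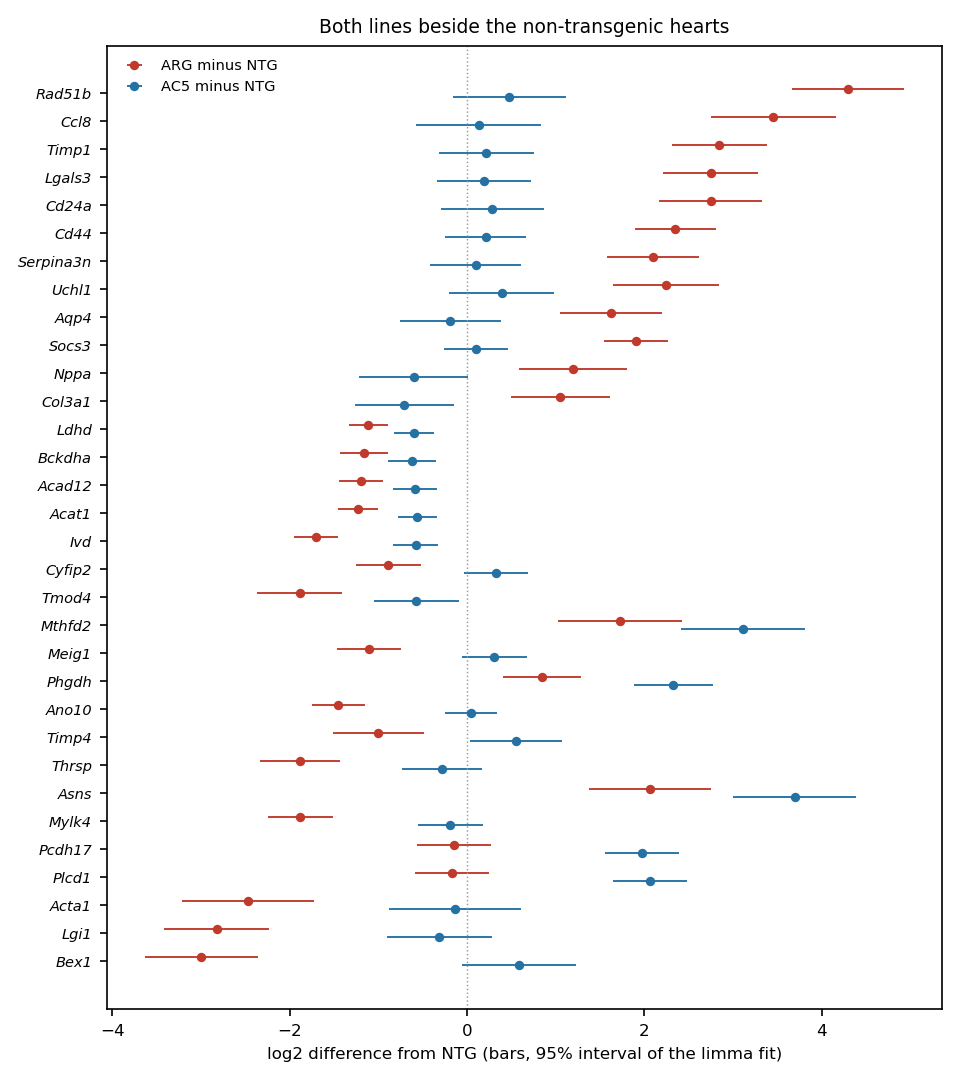
ARG minus NTG (red) and AC5 minus NTG (blue) on the log2 scale with 95% intervals of the limma fit, for the genes with the largest changes in ARG against AC5 or in AC5 against NTG, ordered by ARG minus AC5. The blue points of Plcd1, Pcdh17, Asns, Mthfd2 and Phgdh lie farthest to the right, at 1.98 (Pcdh17) to 3.69 (Asns). All other blue points lie between -0.71 (Col3a1) and 0.59 (Bex1).

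Among 24 genes of natriuretic peptides and the hypertrophy response, 6 rose in ARG over AC5 and 3 fell, with a median of 0.19. Nppa, the atrial natriuretic peptide, ran from 1.19 to 5.33 in ARG (median 1.99) and from 0.448 to 1.08 in AC5 (median 0.586). All ARG hearts were above every AC5 heart, while the NTG hearts (0.715 to 1.26) reached into both groups. The rise was 1.80 ± 0.30 (adjusted p = 0.000363), with 1.20 for ARG minus NTG and -0.60 for AC5 minus NTG, which was not called. Uchl1, described among the leading rises, was also on this list. Fhl1, a LIM protein that takes part in biomechanical sensing at the sarcomere, rose by 1.15 ± 0.15, and Rcan1, a calcineurin regulator induced by calcineurin, by 0.68 ± 0.15. Nppb, the B-type peptide, was higher by 0.53 ± 0.16 (adjusted p = 0.0489). Its call was lost without any of 9 single arrays (AC5 replicates 1, 2, 3, 4 and 6, ARG replicates 2, 4, 5 and 6; adjusted p 0.057 to 0.154), under median centring, and under quantile normalization (0.21). Ccn2, a matrix growth factor, rose by 1.13 ± 0.24 and was not called under quantile normalization (0.67, adjusted p = 0.0681).

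Acta1 encodes skeletal alpha-actin, a fetal heart gene that usually rises in hypertrophy. Its ratios were 0.094 to 0.239 in ARG (median 0.153) and 0.473 to 1.15 in AC5 (median 0.809). It fell by 2.33 ± 0.36 (adjusted p = 0.00018), 5.03-fold, against -2.47 for ARG minus NTG, -0.14 for AC5 minus NTG and -0.64 for ARG minus GLY, which was not called (adjusted p = 0.46). Myh7, the slow beta-myosin heavy chain, was not called between the lines (-0.53 ± 0.19, adjusted p = 0.135). AC5 hearts had Myh7 ratios of 1.43 to 2.79 and ARG hearts 1.14 to 2.37, and Myh7 was higher in AC5 than in NTG (0.94, adjusted p = 0.037). The Myh7 difference was called without ARG replicate 4 (-0.67) and under quantile normalization (-0.78, adjusted p = 0.0302). The first set of replicates gave a Myh7 change of -1.03, but replicates 4 to 6 gave only -0.02.

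The promoter of Acta1 is printed because Acta1 was the deepest fall of the filament genes. The line holds 250 bases before its RefSeq start at chr8:123894776-123895025 (minus strand, GRCm38.p6), with capitals on a CArG box, the site of serum response factor, searched as CC, 6 of A or T, and GG on both strands.
Acta1: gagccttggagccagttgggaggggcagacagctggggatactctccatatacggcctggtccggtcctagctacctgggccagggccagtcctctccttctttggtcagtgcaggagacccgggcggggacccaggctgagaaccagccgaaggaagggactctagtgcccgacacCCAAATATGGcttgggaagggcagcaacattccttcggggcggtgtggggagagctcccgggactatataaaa
The box begins at -73. It was found in the windows of 7 of 25 genes on the list of myosins and actin filament genes, called or not, and of 1.81% of all genes.

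On that list of 29 genes Actg1 rose and Acta1, Mylk4, Tmod4 and Myh7b fell. Tmod4, a cap of the thin filament, fell by 1.32 ± 0.23, from 0.545 to 0.964 in AC5 down to 0.162 to 0.375 in ARG, and was not called under quantile normalization (-0.78, adjusted p = 0.0643). Actg1, cytoplasmic gamma-actin, was higher by 0.33 ± 0.09 (adjusted p = 0.0222), a call lost without AC5 replicate 2 or 3 or ARG replicate 2, 4 or 6 (adjusted p 0.050 to 0.0662). For Actg1 ARG minus NTG was 0.006 and AC5 minus NTG -0.32, neither of them called. Of 29 sarcomere and Z disc genes Pdlim3 rose and Myot, Tcap and Tnnt1 fell, with a median of -0.015, beside 3.15% higher and 3.19% lower among all genes. Pdlim3, an actinin-associated LIM protein, rose by 0.61 ± 0.09, with ratios of 1.27 to 1.51 in ARG and 0.829 to 1.00 in AC5. Myot, the Z disc protein myotilin, fell by 0.65 ± 0.14, and Tcap, the titin cap telethonin, by 0.58 ± 0.10.

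Genes that break down fatty acids and branched-chain amino acids had list medians below NTG in both lines, and lower in ARG. Of 35 fatty acid uptake and oxidation genes 14 fell in ARG against AC5 and 2 rose, with a median of -0.32. The list median of single hearts was -0.76 to -0.41 (log2) in ARG and -0.40 to -0.11 in AC5, so that every ARG heart lay below every AC5 heart. Against NTG the median was -0.54 in ARG (24 lower) and -0.22 in AC5 (1 lower). Of 20 genes of branched-chain amino acid breakdown 9 fell, with a median of -0.34, beside -0.52 for ARG minus NTG (15 lower) and -0.21 for AC5 minus NTG (2 lower). Single hearts ran from -0.72 to -0.46 in ARG and from -0.37 to -0.04 in AC5. The 9 became 4 without AC5 replicate 4 and 5 without AC5 replicate 6 or ARG replicate 4. Quantile normalization left 3 lower calls on the fatty acid list (median -0.17) and 2 on the amino acid list (median -0.19).

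Ivd, isovaleryl-CoA dehydrogenase of leucine breakdown, ran from 0.200 to 0.402 in ARG (median 0.313) and from 0.562 to 0.816 in AC5 (median 0.683). No hearts overlapped, and Ivd fell by 1.12 ± 0.12 (adjusted p = 1.88e-06), or 0.58 after quantile normalization, with AC5 minus NTG at -0.58. Acat1, the mitochondrial thiolase that ends isoleucine and ketone breakdown, ran from 0.349 to 0.540 in ARG and from 0.604 to 0.796 in AC5 and fell by 0.67 ± 0.11. Bckdha, a subunit of the branched-chain ketoacid dehydrogenase, fell by 0.54 ± 0.13, the dehydrogenase Acad12 by 0.61 ± 0.12, and Ldhd, the D-lactate dehydrogenase, by 0.51 ± 0.11. Among genes called lower in AC5 than in NTG without overlap, these 5 fell most (-0.62 for Bckdha, -0.60 for Ldhd, -0.59 for Acad12, -0.58 for Ivd, -0.56 for Acat1), and ARG was lower still in each. In Bckdha, Ldhd and Acad12 the groups overlapped, and in those and in Acat1 quantile normalization ended the call between ARG and AC5 (-0.21, -0.15, -0.23 and -0.30). Pccb, a propionyl-CoA carboxylase subunit, fell by 0.54 ± 0.08 (0.496 to 0.662 in ARG, 0.743 to 0.852 in AC5), a call also lost there (adjusted p = 0.0749). Dbt, the core of the ketoacid dehydrogenase, fell by 0.66 ± 0.17 and was not called without AC5 replicate 4 (adjusted p = 0.0545).

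In fatty acid oxidation the fall was deepest in Acot1, a cytosolic acyl-CoA thioesterase, with ratios of 0.301 to 0.536 in ARG and 0.671 to 0.978 in AC5. It fell by 1.07 ± 0.18 (adjusted p = 0.000383) and was lower in ARG than in GLY as well (-1.04, adjusted p = 0.0021). Enzymes of the mitochondrial spiral fell less, such as Hadh (-0.51 ± 0.09) and the trifunctional protein subunit Hadhb (-0.51 ± 0.08), and so did the peroxisomal Ehhadh (-0.63 ± 0.10). Hadh and Ehhadh were not called under quantile normalization (-0.28 and -0.42, adjusted p 0.191 and 0.109), while Hadhb was (-0.30). The 2 that rose were Pdk4 and Cpt1a. Pdk4, the kinase that shuts pyruvate dehydrogenase, had ratios of 0.717 to 1.41 in ARG and 0.356 to 1.14 in AC5, a rise of 0.79 ± 0.18 (adjusted p = 0.00714) with overlapping groups. For Pdk4 ARG minus NTG was 0.10 and AC5 minus NTG -0.69, neither of them called. Cpt1a, the liver form of the carnitine palmitoyltransferase, differed by 0.28 ± 0.08, a call lost without AC5 replicate 4 or 5 or ARG replicate 2, 4 or 5 (adjusted p 0.0515 to 0.0785) and under quantile normalization. For Cpt1a ARG minus NTG was 0.10 and AC5 minus NTG -0.18, neither of them called. A PPAR response element (AGGTCA, 1 base, AGGTCA) stood in the windows of 0 of 29 genes of this list and of 0.0481% of all genes.

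Respiratory chain and citric acid cycle genes were called in smaller numbers, beside 3.19% called lower among all genes. Of 34 complex I genes Ndufa10 and Ndufb4 fell, and of 38 genes of complexes III and IV and ATP synthase only Uqcr10 did, with medians of -0.08 in both lists. These respiratory chain counts are not far from the share of all genes. Ndufa10, a supernumerary subunit of complex I, fell by 0.53 ± 0.08 (adjusted p = 8.63e-05), from 0.753 to 0.806 in AC5 down to 0.468 to 0.674 in ARG, and by 0.30 after quantile normalization. Uqcr10, a small subunit of complex III, differed by -0.35 ± 0.10, a call lost without AC5 replicate 1, 5 or 6 or ARG replicate 1, 4 or 5 (adjusted p 0.0569 to 0.116). Of 28 genes of the citric acid cycle and pyruvate dehydrogenase Pdk4 rose and Suclg2, Pdp2 and Pdhb fell, with a median of -0.15, or -0.07 under quantile normalization. Against NTG 15 of the 28 were lower in ARG, with a median of -0.33, and the AC5 median was -0.16. The 3 falls became 1 without AC5 replicate 1, 4, 5 or 6 or ARG replicate 3, 4 or 5 and under quantile normalization, and 5 without ARG replicate 6. Suclg2, a succinyl-CoA ligase subunit, differed by -0.53 ± 0.15 and lost its call without any of 9 single arrays (AC5 replicates 1, 3, 4, 5 and 6, ARG replicates 1, 3, 4 and 5; adjusted p 0.0506 to 0.0945). Nmrk2, the muscle nicotinamide riboside kinase of NAD synthesis, rose by 1.79 ± 0.30, with ratios of 1.85 to 8.40 in ARG and 0.612 to 2.16 in AC5. Nnt, the mitochondrial transhydrogenase that makes NADPH from NADH, fell by 0.70 ± 0.09, with ratios of 0.450 to 0.641 against 0.820 to 1.01. Sirt3, a mitochondrial deacetylase, fell by 0.41 ± 0.10 and was not called under quantile normalization (-0.24).

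**Figure D4:**
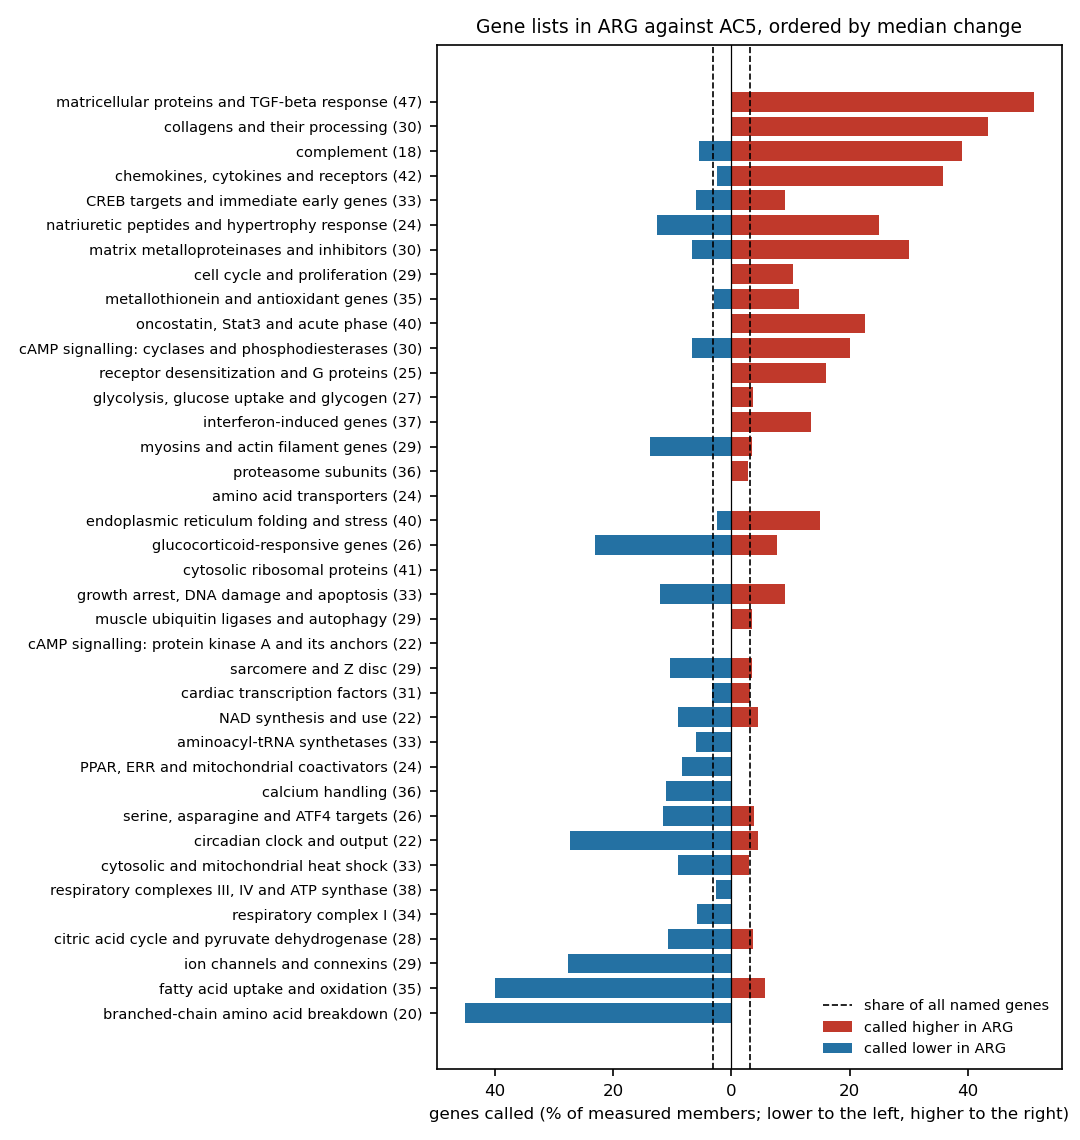
Share of measured members called higher (red, to the right) and lower (blue, to the left) in ARG against AC5 for 38 gene lists, with the number measured in brackets and dashed lines at the shares of all named genes, 3.15% and 3.19%. Matricellular, collagen, complement and chemokine lists reach farthest to the right and the lists of branched-chain amino acid and fatty acid breakdown farthest to the left.

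Calls in the cyclic AMP pathway lists lay mostly among phosphodiesterases, which break down cyclic nucleotides and not all of them cyclic AMP, and genes that end receptor signalling. Of 30 genes on the cyclase and phosphodiesterase list 6 rose (Pde4d, Pde4b, Pde3b, Pde9a, Popdc3 and Pde8a) and Adcy5 and Pde8b fell, with a median of 0.09. Popdc3 binds cyclic AMP and is neither a cyclase nor a phosphodiesterase. Adcy5, the only cyclase called, is the mouse gene of the enzyme that the AC5 line carries. Pde4d, a phosphodiesterase that works beside the beta receptors, ran from 1.48 to 2.02 in ARG and from 1.05 to 1.24 in AC5, with no overlap. It rose by 0.57 ± 0.10 (adjusted p = 0.000724), beside 0.78 for ARG minus NTG and 0.21 for AC5 minus NTG. Only 1 of the 2 Pde4d probe sets was called. Pde4b rose by 0.47 ± 0.10, with overlapping groups, and 2 of its 6 probe sets were called. Quantile normalization ended both calls (Pde4d 0.34 and Pde4b 0.38, adjusted p 0.165 and 0.0538) and left 2 rises and 1 fall on the list. The 2 falls became 1 without AC5 replicate 1, 2, 4 or 5 or ARG replicate 2, 3, 4 or 5.

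Of 25 genes of receptor desensitization and G proteins 4 rose (Grk5, Arrb2, Rgs2 and Rgs10), with a median of 0.08. Grk5, a kinase that phosphorylates activated receptors, ran from 1.94 to 2.82 in ARG (median 2.43) and from 0.999 to 1.43 in AC5 (median 1.18), a rise of 1.01 ± 0.16 (adjusted p = 0.000182) in both probe sets. Its call ended under quantile normalization (0.55, adjusted p = 0.0604). Under quantile normalization none of the 25 genes was called. The 4 rises became 2 without AC5 replicate 3 or 6 or ARG replicate 4 or 5. Of 22 genes of protein kinase A and its anchors limma called none (3 lower at an unadjusted p under 0.05), with a median of -0.01. Of 33 CREB targets and immediate early genes Junb, Atf3 and Myc rose and Per1 and Ier5 fell, with a median of 0.22, and without ARG replicate 3 the rises were 5. The 2 falls became 0 without AC5 replicate 2 and 1 without AC5 replicate 1, 3, 4 or 5 or ARG replicate 1, 2, 3 or 6. Quantile normalization left 2 rises and 0 falls. Junb, a subunit of AP-1, ran from 1.34 to 1.70 in ARG and from 0.722 to 0.982 in AC5 and rose by 0.88 ± 0.12 (adjusted p = 2.71e-05), with close values in the 2 sets of replicates (0.86 and 0.90). Atf3, a stress-induced transcription factor, rose by 0.84 ± 0.16. CRE palindromes (TGACGTCA) stood in the windows of 3 of 23 genes of this list, none of them called, and of 2.03% of all genes.

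Of 36 calcium handling genes 4 fell (Casq1, Hrc, Camk2g and Casq2), with a median of -0.06, beside 3.19% called lower among all genes. Casq1, the skeletal calsequestrin that stores calcium in the sarcoplasmic reticulum, ran from 0.381 to 0.694 in ARG and from 0.793 to 1.37 in AC5 and fell by 1.10 ± 0.20 (adjusted p = 0.000841). Hrc, the histidine-rich calcium binding protein of the same store, fell by 0.48 ± 0.09. Of 29 ion channel and connexin genes 8 fell, with a median of -0.17, or -0.06 among replicates 1 to 3 and -0.21 among replicates 4 to 6. Quantile normalization left 2 of the 8. Kcna5, the channel of the ultrarapid potassium current, ran from 0.449 to 1.33 in ARG and from 1.17 to 1.52 in AC5, with ARG replicate 6 inside the AC5 range, and fell by 1.02 ± 0.21 (adjusted p = 0.00284). For Kcna5 ARG minus NTG was -0.455 and AC5 minus NTG 0.562, neither of them called. Kcnip2, the partner of the transient outward potassium channels, ran from 0.485 to 0.698 in ARG and from 0.773 to 0.947 in AC5 and fell by 0.60 ± 0.09 (adjusted p = 0.000179). Scn4b, a sodium channel beta subunit, fell by 0.93 ± 0.22, with -0.31 in the first set of replicates and -1.55 in replicates 4 to 6, and lost its call under quantile normalization (-0.67). Among 31 cardiac transcription factors Tbx20 rose (0.77 ± 0.20) and Hdac9, a class IIa histone deacetylase, fell (-0.80 ± 0.17). These counts are near the 3.15% called higher and 3.19% called lower among all genes. Tbx20 was not called under quantile normalization (0.71, adjusted p = 0.056).

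Among the 38 pathway lists, 2 lists of matrix genes had the highest shares of rises. Of 47 matricellular and TGF-beta response genes 24 rose, with a median of 0.40, and of 30 collagen and collagen processing genes 13 rose, with a median of 0.34, beside 3.15% among all genes. No member of either list fell. In AC5 against NTG the list medians were -0.03 and -0.10. Both medians were larger within replicates 4 to 6 (0.56 and 0.46) than within replicates 1 to 3 (0.29 and 0.18), and quantile normalization left 15 and 11 rises. In bulk heart RNA, more cells of a type and more RNA per cell cannot be told apart.

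Col3a1, the type III collagen chain, ran from 0.855 to 3.56 in ARG (median 1.74) and from 0.301 to 0.687 in AC5 (median 0.524). No ARG heart overlapped an AC5 heart, and the NTG hearts, at 0.673 to 1.03 (median 0.745), overlapped both. The rise was 1.76 ± 0.27 (adjusted p = 0.000156) at its most changed probe set, with 1.05 for ARG minus NTG and -0.71 for AC5 minus NTG, which was not called (adjusted p = 0.477), and both probe sets rose. The type I chains Col1a1 and Col1a2 rose by 1.20 ± 0.22 and 1.21 ± 0.15. Postn, periostin of activated fibroblasts, ran from 1.13 to 2.88 in ARG and from 0.547 to 0.823 in AC5 and rose by 1.39 ± 0.24. Mfap5, a microfibril protein, had AC5 ratios of 0.750 to 0.812 and ARG ratios of 1.32 to 3.13 and rose by 1.37 ± 0.15. For Postn and Mfap5 ARG minus NTG was 1.08 and 1.09. AC5 minus NTG was -0.31 and -0.29, neither of them called, though every AC5 heart lay below every NTG heart in both genes. Tnc, the matrix protein tenascin-C, rose by 0.93 ± 0.16.

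Of 30 matrix metalloproteinases and inhibitors 9 rose and Timp4 and Adamts1 fell, with a median of 0.18. The falls were 1 without AC5 replicate 1, 2 or 4 or ARG replicate 1, 3, 4 or 5. The 9 rises became 5 without AC5 replicate 3 or 6 or ARG replicate 5, and 4 under quantile normalization. Mmp12, the macrophage elastase, ran from 1.5 to 2.94 in ARG and from 0.884 to 1.05 in AC5 and rose by 1.06 ± 0.14 (adjusted p = 2.71e-05), with 1.06 in each set of replicates. AP-1 sites (TGANTCA) stood in the windows of 6 of 21 genes of this list, among them Mmp12, and of 8.97% of all genes.

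Chemokine, complement and acute phase genes rose with the matrix genes. Of 42 chemokines, cytokines and receptors 15 rose and Ccl11 fell, with a median of 0.23. Ccl2, the main attractant of inflammatory monocytes, ran from 1.61 to 2.59 in ARG and from 0.823 to 1.02 in AC5 and rose by 0.96 ± 0.11 (adjusted p = 3.45e-06). Ccl7 and Ccl12, of the same monocyte chemoattractant family, rose by 0.77 ± 0.14 and 1.49 ± 0.27. Ccl11, the eosinophil attractant eotaxin, differed by -0.40 ± 0.11, a call lost without AC5 replicate 2, 4, 5 or 6 or ARG replicate 1, 3 or 4 (adjusted p 0.0546 to 0.103). Of 18 complement genes 7 rose and Cd59a fell, with a median of 0.26. C3ar1, the receptor of the fragment C3a, ran from 1.17 to 3.03 in ARG and from 0.854 to 1.19 in AC5 and rose by 1.06 ± 0.19, and C1qa, a chain of C1q, rose by 0.81 ± 0.17. Cd59a, which blocks the membrane attack complex, differed by -0.29 ± 0.08, a call lost without AC5 replicate 2, 5 or 6 or ARG replicate 4 (adjusted p 0.0555 to 0.0752).

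Of 40 genes of oncostatin, Stat3 and the acute phase 9 rose, with a median of 0.10, and 8 did so under quantile normalization. Osmr, the oncostatin M receptor, ran from 1.26 to 2.23 in ARG and from 0.907 to 1.33 in AC5 and rose by 0.80 ± 0.14, and Saa3, an acute phase apolipoprotein, rose by 0.65 ± 0.11. STAT sites (TTCCNGGAA) stood in the windows of 2 of 34 genes of this list, neither of them called, and of 1.35% of all genes. Of 37 interferon-induced genes 5 rose (Ifi27l2a, Ifitm2, Irf8, Ifitm3 and Oasl2), with a median of 0.06, and 2 did so under quantile normalization. Ifi27l2a rose by 0.92 ± 0.17, from 0.989 to 1.53 in AC5 to 1.83 to 3.66 in ARG, and was not called under quantile normalization (0.50, adjusted p = 0.136).

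Markers of macrophages and monocytes moved with these lists. Of 25 markers 15 rose, with a median of 0.67 (0.36 within replicates 1 to 3, 0.96 within replicates 4 to 6, 0.41 after quantile normalization, which left 9 rises). The median of the list in single hearts was 0.25 to 0.84 in ARG and -0.19 to 0.17 in AC5, with no overlap. Ms4a7, a membrane protein of macrophages, ran from 1.96 to 5.90 in ARG and from 0.923 to 1.32 in AC5 and rose by 1.53 ± 0.18, and Ctss, the lysosomal protease cathepsin S, rose by 1.44 ± 0.20. Cd68, a lysosomal marker, rose by 0.86 ± 0.19 and was not called under quantile normalization (0.52). Of 14 fibroblast markers 6 rose (Col3a1, Mfap5, Col1a2, Col1a1, Tcf21 and Ddr2) and Dpep1 fell (-0.42 ± 0.09), with a median of 0.30. Against NTG the fibroblast median was 0.24 in ARG (6 higher, 2 lower) and -0.20 in AC5 (none called). In single hearts it was 0.01 to 0.33 in ARG, -0.34 to -0.19 in AC5 and -0.10 to 0.02 in NTG. Every AC5 heart thus lay below every NTG heart, and the gap between ARG and AC5 is not a rise in ARG alone. Part of these markers also stand on the matrix and chemokine lists. The part of macrophages and fibroblasts in the rises of the matrix, chemokine and complement genes was not tested.

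**Figure D5:**
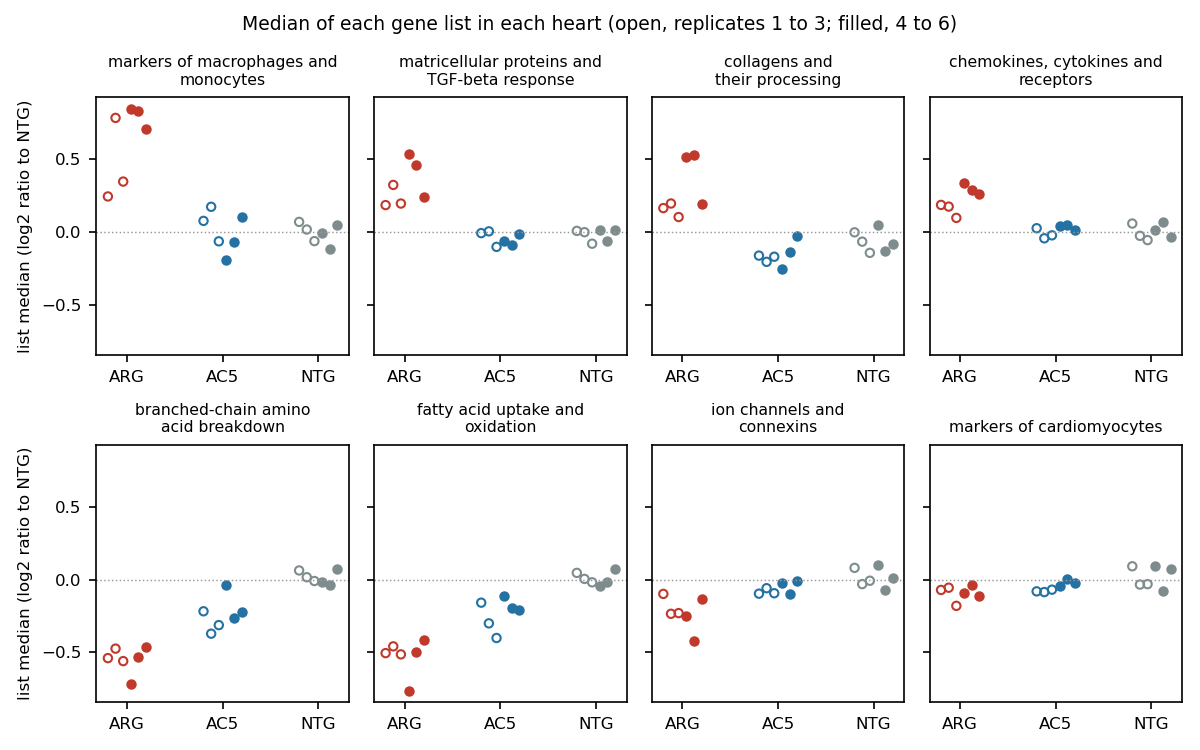
Median log2 ratio of 8 gene lists (y axis) in each ARG, AC5 and NTG heart, with replicates 1 to 3 as open and 4 to 6 as filled points. ARG hearts lie above AC5 hearts for macrophage markers, matricellular, collagen and chemokine genes, below them for fatty acid and branched-chain amino acid breakdown, and among them for cardiomyocyte markers.

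Markers of other cells gave few calls. Limma called none of 11 neutrophil and mast cell markers (none at an unadjusted p under 0.05), 6 red blood cell markers (none), 13 skeletal muscle markers (1 higher) and 10 lung and thymus markers (1 higher). Of 18 endothelial markers Rgcc and Aqp1 fell, beside 3.19% called lower among all genes. The count of falls was 1 without AC5 replicate 4, 5 or 6 or ARG replicate 1, 2, 3 or 4 and under quantile normalization. Rgcc, a regulator of the cell cycle and complement response, ran from 0.454 to 1.03 in ARG and from 0.988 to 1.37 in AC5 and fell by 1.03 ± 0.14. Of 10 adipocyte markers Adipoq, the hormone adiponectin, fell by 1.38 ± 0.23, at -0.81 among replicates 1 to 3 and -1.94 among replicates 4 to 6. Of 11 atrial markers Nppa alone rose and of 10 nerve markers Pmp22 (0.60 ± 0.09), a membrane protein of myelin. Jchain, of plasma cells, differed by -0.41 ± 0.12. Abcc9, a potassium channel subunit on both the pericyte marker list and the ion channel list, differed by -0.48 ± 0.14. Their calls were lost without any of 7 arrays for Jchain (AC5 replicates 1, 3 and 4, ARG replicates 1, 2, 3 and 5; adjusted p 0.0532 to 0.104) and 8 for Abcc9 (AC5 replicates 1, 2, 4 and 6, ARG replicates 3, 4, 5 and 6; adjusted p 0.0502 to 0.114).

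Of 40 genes of protein folding in the endoplasmic reticulum 6 rose in ARG over AC5 and Herpud1 fell, with a median of 0.02. Under quantile normalization 1 rose and 2 fell, with a median of -0.05. Against NTG the median was 0.22 in ARG (11 higher) and 0.20 in AC5 (1 higher). Single hearts had list medians of 0.01 to 0.61 in ARG, 0.01 to 0.60 in AC5 and -0.08 to 0.07 in NTG, so hearts of both lines reached into the NTG range. Creld2, a chaperone-like protein released under stress, ran from 1.58 to 4.95 in ARG and from 1.00 to 2.59 in AC5 and rose by 0.94 ± 0.21 (adjusted p = 0.0067). Derl3, which helps to carry misfolded proteins out of the reticulum, ran from 1.39 to 3.00 in ARG and from 0.846 to 1.23 in AC5, without overlap, and rose by 0.88 ± 0.15 (adjusted p = 0.000628). Sdf2l1, a chaperone cofactor, was higher by 0.71 ± 0.20, a call lost without AC5 replicate 1, 3, 4 or 6 or ARG replicate 2 or 4 (adjusted p 0.0652 to 0.113). Herpud1, of the same degradation pathway, fell by 0.48 ± 0.11, with AC5 hearts at 0.956 to 2.03 and ARG hearts at 0.863 to 1.01. For Herpud1 ARG minus NTG was -0.16 and AC5 minus NTG 0.33, neither of them called. Quantile normalization ended the calls of Creld2 (0.34) and Sdf2l1 (0.19) and kept that of Derl3 (0.57).

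The promoters of Creld2 and Derl3 are shown because both genes rose and hold the endoplasmic reticulum stress element, CCAAT and CCACG with 9 bases between, in capitals on either strand. They are the 250 bases before the RefSeq start at chr15:88819396-88819645 and chr10:75893148-75893397 (both plus strand, GRCm38.p6).
Creld2: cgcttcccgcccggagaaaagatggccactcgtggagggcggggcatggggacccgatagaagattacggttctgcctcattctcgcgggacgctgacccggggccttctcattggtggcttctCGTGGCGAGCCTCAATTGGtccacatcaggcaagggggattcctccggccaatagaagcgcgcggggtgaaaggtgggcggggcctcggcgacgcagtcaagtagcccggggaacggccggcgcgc
Derl3: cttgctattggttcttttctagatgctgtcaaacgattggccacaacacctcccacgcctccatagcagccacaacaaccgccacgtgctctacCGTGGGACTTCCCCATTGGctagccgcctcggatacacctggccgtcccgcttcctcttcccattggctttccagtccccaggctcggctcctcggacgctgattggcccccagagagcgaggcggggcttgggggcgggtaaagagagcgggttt
The element begins at -126 in Creld2 and at -156 in Derl3, in both as its reverse complement. It stood in the windows of 10 of 35 genes on this list and of 0.137% of all genes. The 10 were Calr, Canx, Creld2, Derl3, Dnajc3, Ero1b, Hsp90b1, Hspa5, Pdia6 and Syvn1, of which only Creld2 and Derl3 were called between ARG and AC5.

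Of 33 heat shock genes Hspa1l rose and Dnajb1, Trap1 and Hspe1 fell, and none of the 33 was called under quantile normalization. Among all genes 3.15% were called higher and 3.19% lower. Dnajb1, a co-chaperone of the cytosolic heat shock protein, ran from 0.264 to 0.768 in ARG and from 0.467 to 1.32 in AC5, with overlap, and differed by -1.24 ± 0.25 (adjusted p = 0.00299). Hspa1l, a member of the Hsp70 family, rose by 0.68 ± 0.12, and after quantile normalization Hspa1l differed by 0.36 and Dnajb1 by -0.91. Of 41 cytosolic ribosomal protein genes limma called none (1 lower at an unadjusted p under 0.05), with a median of 0.005. Of 36 proteasome genes Psmd8 alone was called (0.38 ± 0.11), near the 3.15% called higher among all genes. The Psmd8 call was lost without any of 7 arrays (AC5 replicates 1, 2, 3 and 4, ARG replicates 2, 4 and 5; adjusted p 0.0563 to 0.136) and with the replicate number as a block (adjusted p = 0.0543). Of 33 aminoacyl-tRNA synthetases the mitochondrial Lars2 and Nars2 fell, beside 3.19% called lower among all genes. Lars2 fell by 0.47 ± 0.10, a call that quantile normalization ended (-0.30).

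Of 22 clock and clock output genes Nfil3 rose and 6 fell (Per2, Per1, Ciart, Dbp, Hlf and Tef), and the falls were 3 without ARG replicate 2 and 2 under quantile normalization. Nfil3, a repressor that binds the D-box, ran from 2.24 to 3.85 in ARG (median 2.91) and from 1.03 to 2.02 in AC5 (median 1.10). It rose by 1.25 ± 0.15 (adjusted p = 9.95e-06), or 0.70 after quantile normalization, and was higher in ARG than in GLY (0.87, adjusted p = 0.0025). Tef, an activator that binds the same element, fell by 0.55 ± 0.10, from 0.683 to 0.933 in AC5 down to 0.464 to 0.704 in ARG. Per2 and Per1, the negative limb of the clock, differed by -0.93 ± 0.26 and -0.67 ± 0.17. The Per2 call was lost without AC5 replicate 4, 5 or 6 or ARG replicate 2, 3 or 4 (adjusted p 0.0501 to 0.0954) and the Per1 call without AC5 replicate 1 or 2 or ARG replicate 2 (adjusted p 0.0556 to 0.0635). Quantile normalization ended the calls of Tef (-0.39), Per2 (-0.85) and Per1 (-0.49). D-boxes (TTATGTAA or TTACGTAA) stood in the window of 1 of 19 genes of this list, Per3, and of 1.23% of all genes. For the hour at which hearts were taken, the sources used here give no value.

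Of 26 glucocorticoid-responsive genes Mt2 and Pdk4 rose and 6 fell, which became 3 without AC5 replicate 1, 2 or 4 or ARG replicate 4 and under quantile normalization. Ddit4, an inhibitor of mTOR complex 1, ran from 0.264 to 0.902 in ARG and from 0.872 to 1.23 in AC5 and fell by 0.94 ± 0.18, at -1.37 among replicates 1 to 3 and -0.50 among replicates 4 to 6. Mt2, a metallothionein, ran from 2.19 to 5.88 in ARG and from 1.19 to 3.07 in AC5 and rose by 1.16 ± 0.25, which quantile normalization ended (0.48). Of 35 metallothionein and antioxidant genes Mt2, Gpx3, Hmox1 and Sod3 rose and Gsta3 fell, and the rises were 7 without ARG replicate 1 and 0 under quantile normalization. Hmox1, heme oxygenase 1, rose by 0.57 ± 0.11 (0.29 and not called after quantile normalization), and Gsta3, a glutathione transferase, fell by 0.59 ± 0.10. Metal response elements (TGCGCNC) stood in the windows of 8 of 30 genes of this list and of 17.0% of all genes.

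Of 33 genes of growth arrest, DNA damage and apoptosis Rad51b, Plk2 and Casp4 rose and Gadd45a, Cdkn1c, Sesn1 and Casp9 fell, and the 4 falls became 2 without AC5 replicate 1 or 6 or ARG replicate 3 or 6 and 1 under quantile normalization. Gadd45a, a stress-induced growth arrest protein, ran from 0.414 to 0.588 in ARG and from 0.731 to 1.21 in AC5. It fell by 0.86 ± 0.10 (adjusted p = 4.75e-06), and was lower in ARG than in GLY (-0.56, adjusted p = 0.0029). Cdkn1c, the cyclin-dependent kinase inhibitor p57, fell by 0.54 ± 0.11 and lost its call under quantile normalization (-0.46, adjusted p = 0.0659). Of 29 cell cycle genes Cdk1, Bub1 and Rrm2 rose, beside 3.15% called higher among all genes. The count of these rises was 1 without AC5 replicate 2, 4, 5 or 6 or ARG replicate 2 or 5 and under quantile normalization. Cdk1, the kinase of mitotic entry, ran from 0.958 to 1.25 in ARG and from 0.754 to 0.917 in AC5 and rose by 0.40 ± 0.07 (adjusted p = 0.00131). For Cdk1 ARG minus NTG was 0.12 and AC5 minus NTG -0.28, neither of them called. Of 27 glycolysis genes Phkg1, the muscle phosphorylase kinase, was called (0.72 ± 0.18), near the 3.15% called higher among all genes. The Phkg1 call was lost without AC5 replicate 2 or 3 or ARG replicate 6 (adjusted p 0.0509 to 0.0532) and under quantile normalization.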

How the data were processed

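Total RNA from mouse hearts was labelled and hybridised to Affymetrix arrays, per the labels' protocols. The values deposited by the authors are ratios, made with RMA per the submitters' processing notes (version not given in the sources used here). That they were divided by the non-transgenic level, on a linear scale, was inferred from the values themselves. No filter on brightness was possible, and dim and bright probe sets were treated alike.

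Of 45101 probe sets 64 Affymetrix controls were left out. Of the 45037 tested, 34945 had 1 gene symbol, 932 several and 9160 none, and symbols of 18032 of 18194 genes were updated through Entrez identifiers. Log2 of the ratio was fitted with limma 3.58.1 (R 4.3.3) over all 24 arrays, with 1 mean per genotype, empirical Bayes moderation (20 residual and 6.59 prior degrees of freedom) and Benjamini-Hochberg adjustment over all probe sets. Calls were made at an adjusted p under 0.05, and "rose" or "fell" is used of calls. Differences are log2 ± SE, with a median SE of 0.0992. The number of arrays limits the precision. The fit was tested on simulated data.

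The 52 gene lists (1260 genes matched) and the genes described were chosen with earlier results of these data known. Named genes were the 12 largest rises and 12 largest falls without overlap, the largest called rise and fall of each list, the 5 largest called rises and falls without overlap of AC5 against NTG, and Adcy5 and Myh6, 80 in all. Another 37 genes are examples picked with their values in view: Col1a1, Col1a2, Postn, Mfap5, Tnc, Ccl2, Ccl7, Ccl12, Mmp12, Cd68, C1qa, Ctss, Osmr, Saa3, Hadh, Hadhb, Ehhadh, Cpt1a, Pccb, Kcnip2, Scn4b, Hrc, Pde4b, Nppb, Fhl1, Ccn2, Rcan1, Myh7, Tcap, Psat1, Tef, Atf3, Sdf2l1, Derl3, Hmox1, Cdkn1c and Slc7a5. So were the members given by name alone. A list gene was read at the probe set chosen by suffix (_at first), then lowest number. The largest rises and falls of a comparison were read at the gene's most changed probe set in it. Probe sets of a gene did not always share its call. Only 1 of 3 was called for Kcnip2, Tef, Tbx20, Lars2, Uqcr10 and Cpt1a. Only 1 of 2 was called for Fhl1, Tnc, Rcan1, Ms4a7, Hdac9, Ndufa10, Gsta3, Cd59a and Dpep1. Promoter windows are from RefSeq. Tables used pandas 2.3.3 and numpy 2.4.6 in Python 3.11.15, and plots matplotlib 3.10.9.

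Alternatives were the 12 arrays alone, the replicate number or the replicate set as a term, each set alone, quantile normalization, median centring, robust moderation, array or genotype weights, leaving out arrays, 1 probe set per gene, and stricter thresholds.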

Additional observations from a re-analysis of the deposited data

Results flagged for a closer look

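In 340 groups of 6 hearts (ARG or AC5, for genes and list medians), 24 held a heart whose gap to its neighbour exceeded 0.625 of the group's range. Gap and range were taken on the log2 scale, while the gene values below are linear ratios. Chance gives about 1 in 20.

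In AC5 replicate 4 Asns had a ratio of 3.87 at its x probe set (others 13.1 to 24) and 2.69 at its other one (others 7.38 to 13), and Phgdh had 1.91 (others 4.8 to 7.33). Osmr was at 1.33 in that heart (others 0.907 to 1.02). In AC5 replicate 5 Nfil3 was at 2.02 (others 1.03 to 1.19), Nppb at 2.14, Hdac9 at 0.725 and Cpt1a at 0.758. The median log2 ratio of CREB targets and immediate early genes was -0.268 in that heart (others -0.047 to 0.012), and that of the growth arrest list was -0.099. Cd24a was at 0.944 in AC5 replicate 6, and the median of complexes III and IV and ATP synthase was -0.09 in AC5 replicate 3.

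Among ARG hearts, replicate 4 had the lowest medians for fatty acid oxidation (-0.762, others -0.513 to -0.412) and branched-chain amino acid breakdown (-0.718, others -0.559 to -0.464). It had 0.119 for the growth arrest list, 3.66 for Ifi27l2a (others 1.83 to 2.29) and 0.326 for Scn4b. ARG replicate 1 had 0.768 for Dnajb1 (others 0.264 to 0.367) and 0.625 for Ehhadh, and ARG replicate 2 had 2.59 for Ccl2 (others 1.61 to 1.79) and 2.09 for Ccl7. Bckdha was at 0.707 in ARG replicate 6 (others 0.407 to 0.480), Cpt1a at 0.899 in ARG replicate 3, and the cyclase and phosphodiesterase median was 0.146 in ARG replicate 5.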

How the results depend on the processing

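The 2220 calls in ARG against AC5 (1134 higher, 1086 lower) became 889 (485 and 404) under quantile normalization, 1281 (628 and 653) with 1 probe set per gene, 1076 (575 and 501) at an adjusted p under 0.01, 734 (484 and 250) at 1.5-fold or more, 244 (122 and 122) within replicates 1 to 3, and 1370 (507 lower) within replicates 4 to 6. Without ARG replicate 1 and GLY replicates 1 and 3 there were 3540 (1963 higher). Fewer genes, fewer arrays or stricter thresholds bear on these by construction, except in quantile normalization and the 3 arrays, where the cause was not tested. The 2 replicate sets hold the same number of arrays, and the gap between their 244 and 1370 calls was not tested either. Leaving out 1 array in turn gave 1588 (without ARG replicate 4) to 2510 (without ARG replicate 1). The other alternatives stayed within 1.5 times.

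The labels do not say that a number marks shared hearts or a shared day. Deviations of same-numbered ARG and AC5 hearts correlated at 0.103 to 0.212 for 5 numbers and -0.0699 for replicate 2, and 2 of 6 correlated best with their own number, so the numbers were not taken to pair the hearts. With a replicate block 2293 were called, and only Psmd8 and Nppb among genes named lost their calls.

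No named gene changed direction under any alternative run. Of 80 called genes and probe sets named by the rule, 26 were not called under quantile normalization and 13 without 1 or more single arrays. The median of the myosin and actin filament list (0.057) was -0.004 without ARG replicate 4. With the 12 arrays alone Uqcr10, Psmd8, Ccl11, Jchain, Nppb and Sdf2l1 were not called. Ratios hold no signal level, so what dim signal limits could not be judged.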
